A study of Mus musculus with 2 samples.

Results

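Mir335, Mir483, Mir675, Mir296 and Mir298 are microRNA (miRNA) genes that lie in or beside the imprinted genes Mest, Igf2, H19 and Gnas. They were chosen by name from imprinted loci other than the Dlk1-Dio3 domain and the Sfmbt2 array. The list is not a full set of such genes and makes up 5 of the 2202 miRNA genes counted. Small RNA below 30 bases was sequenced from the calf muscle gastrocnemius of female B6CASTF1/J mice aged 4 days. These mice are the hybrid offspring of a C57BL/6J and a CAST/EiJ parent, and the labels name no treatment. The data comprised 1 group of 2 libraries, labelled as biological replicates 1 and 2 and made from separately numbered females. With 1 group there was no condition to compare, so levels, their order and the spread between the libraries are described.

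An imprinted gene is transcribed mainly from the chromosome inherited from 1 parent, and many imprinted genes act on fetal and neonatal growth. Mest and Igf2 are expressed from the paternal chromosome and H19 from the maternal one, while the Gnas locus gives rise to transcripts of either parental origin, among them the paternal antisense transcript Nespas. Igf2 encodes a growth factor, H19 a long noncoding RNA abundant in fetal and neonatal muscle, and Mest an endoplasmic reticulum protein of mesodermal tissues. A miRNA gene is transcribed as part of a longer RNA, from which a hairpin is cut and then trimmed to mature arms of about 22 bases. The arm in use pairs with target RNAs mainly through its seed, bases 2 to 8. The deposited counts hold both arms of a hairpin and both parental alleles together.

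The mature arms are shown because no seed is common to any of them. RefSeq (build GRCm38.p6) gave 10 mature sequences for the 5 genes, written here 5′ to 3′ with the seed in capitals.
miR-335-5p: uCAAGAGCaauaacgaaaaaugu
miR-335-3p: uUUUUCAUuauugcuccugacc
miR-298-5p: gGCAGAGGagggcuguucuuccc
miR-298-3p: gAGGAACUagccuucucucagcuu
miR-483-5p: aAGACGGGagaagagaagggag
miR-483-3p: uCACUCCUccccucccgucuu
miR-296-5p: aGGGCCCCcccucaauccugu
miR-296-3p: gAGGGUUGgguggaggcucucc
miR-675-5p: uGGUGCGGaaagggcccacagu
miR-675-3p: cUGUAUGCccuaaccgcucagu
The 10 arms carried 10 distinct seeds, and none of these seeds occurred in any other of the 1738 mouse mature sequences of the RefSeq table. When the match was relaxed to bases 2 to 7, miR-335-5p matched miR-7646-5p, miR-335-3p matched miR-6986-3p, miR-483-3p matched miR-3110-3p and miR-296-5p matched miR-5621-3p. The genes of these 4 partners had next to no counts in this muscle. Mir6986 was highest with 2 counts in library 1 and 3 in library 2, and Mir3110 had 0 in both. The arms also differed in composition. In miR-335-5p 30.4% of the bases were G or C, and only 1.55% of the RefSeq mature sequences had a lower share. The arms of Mir296 lay at the other end with 66.7% for miR-296-5p and 68.2% for miR-296-3p, against a median of 52.2% in the table. miR-296-5p also holds an unbroken run of 7 C bases that starts inside its seed.

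The hairpins show where the arms lie and were compared for reads that could belong elsewhere. They are written with both mature arms in capitals.
Mir335, chr6:30741299-30741396, plus strand: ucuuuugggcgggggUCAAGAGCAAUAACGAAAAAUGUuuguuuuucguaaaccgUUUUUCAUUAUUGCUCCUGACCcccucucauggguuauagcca
Mir298, chr2:174267504-174267585, minus strand: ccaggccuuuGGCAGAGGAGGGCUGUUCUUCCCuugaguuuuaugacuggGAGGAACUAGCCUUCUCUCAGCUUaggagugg
Mir483, chr7:142654924-142654996, minus strand: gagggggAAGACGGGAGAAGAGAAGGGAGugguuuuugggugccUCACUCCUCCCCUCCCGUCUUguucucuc
Mir296, chr2:174267047-174267125, minus strand: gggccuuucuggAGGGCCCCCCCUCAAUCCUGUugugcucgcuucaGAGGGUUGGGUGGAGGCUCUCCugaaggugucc
Mir675, chr7:142577064-142577147, minus strand: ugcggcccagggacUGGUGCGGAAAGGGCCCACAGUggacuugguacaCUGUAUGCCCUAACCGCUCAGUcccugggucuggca
All 5 RefSeq hairpins were identical to the GENCODE M21 transcripts on which the counted genes rest. The longest stretch that any of them shared with another counted gene was 12 bases, between Mir298 and the genes Mir8099-1 and Mir8099-2, and the other 4 shared at most 11 bases. A whole mature arm of these genes is therefore not found in any other counted gene, although the rest of the genome was not searched. None of the 5 overlapped another counted gene on either strand. In folding-energy predictions per base, the Mir675 hairpin was among the most stable, at -0.67 kcal/mol per base, with 2.19% of the 1005 RefSeq hairpins more stable. Mir296 stood at -0.55, Mir298 at -0.52, Mir483 at -0.46 and Mir335 at -0.45 kcal/mol per base, and the median of all hairpins was -0.41.

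The 5 genes relate to their loci in different ways in GENCODE M21 on mm10, as the locus map shows. Mir335 lies on the strand of Mest, 17.8 kb from its start, in an intron of 7 of the 11 annotated Mest transcripts and outside the other 4. Mir483 lies on the strand of Igf2, 11.8 kb from its start, in an intron of 7 of 9 Igf2 transcripts, and also in an intron of the gene Gm49394. Mir675 lies 0.996 kb from the start of H19 and falls in an exon of 3 of the 7 H19 transcripts, in an intron of 1 and outside the other 3. Mir675 and Mir483 are 77.8 kb apart on the same strand, with no other counted gene between them. Mir296 and Mir298 are 379 bases apart and lie inside no annotated gene. They sit 17.2 kb and 16.7 kb before the start of Gnas, on the opposite strand, and 14.1 kb and 13.7 kb beyond the annotated end of the antisense transcript Nespas. "Gnas locus" thus names their position and strand, and no annotated transcript joins them to Gnas or Nespas.

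**Figure D1:**
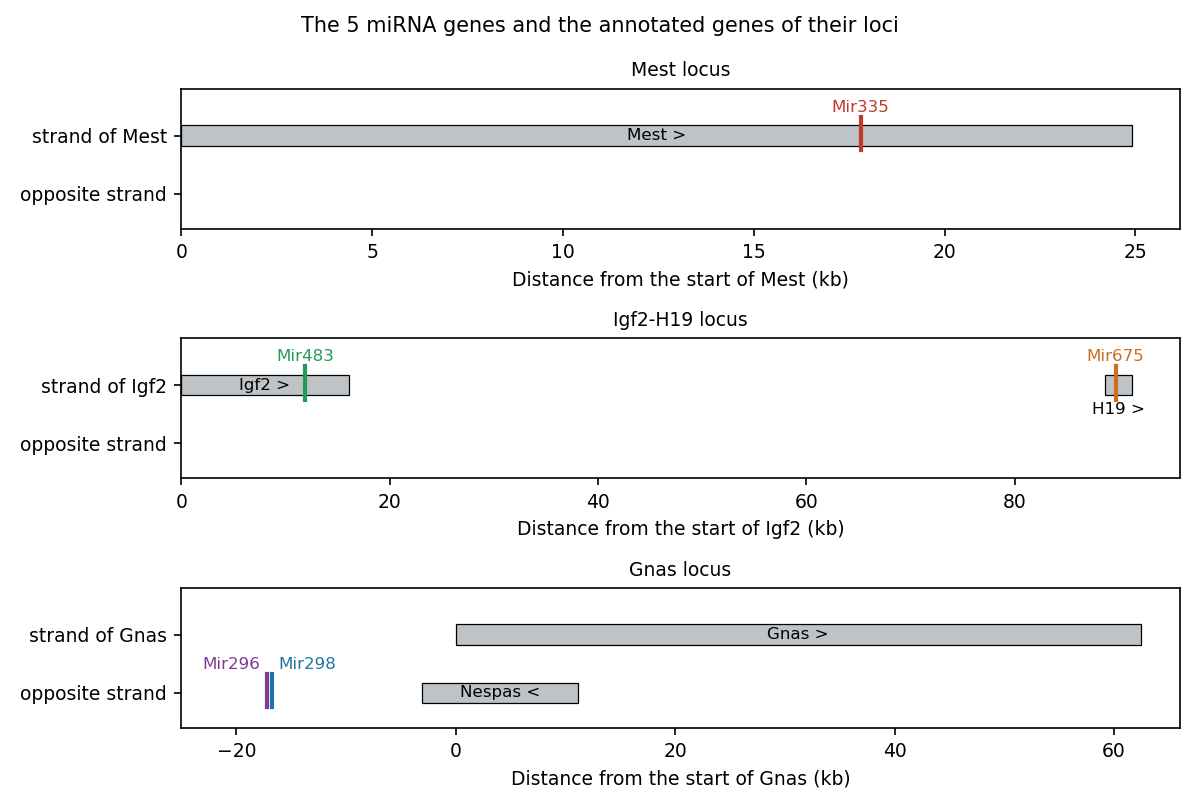
Positions of the 5 miRNA genes (coloured ticks) and of the annotated genes of their loci (grey boxes), in kb from the start of Mest, Igf2 or Gnas, with the strand of that gene in the upper row and the opposite strand in the lower row. Mir335, Mir483 and Mir675 fall inside Mest, Igf2 and H19, whereas Mir296 and Mir298 lie outside both Gnas and Nespas.

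Library 1 held 10426665 reads and library 2 held 8487769, of which 5569392 and 4336759 were own-strand counts of miRNA genes. Levels are these counts scaled to the gene total of the library (CPM). A read covers a single mature arm, so levels were not divided by hairpin length, which ranged from 73 to 98 bases among the 5 genes. Genes that reached 2 CPM in each of the libraries are called detected, and 335 genes or 15.2% of all counted genes did so. Mir206, a marker of skeletal muscle, had the most counts of all genes, at 129336 CPM in library 1 and 119323 CPM in library 2. Of 9 neural marker genes, Mir124a-2, Mir124a-3 and Mir9-2 had no count in either library and 3 were detected. The rest of the skeletal muscle list was uneven. Mir499 averaged 1169 CPM, Mir208b 156 CPM, Mir486 87.3 CPM and Mir133b 82.9 CPM, whereas Mir1a-2 averaged 17.0, Mir133a-1 5.24, Mir1a-1 2.20 and Mir133a-2 0.410 CPM, the last not detected. A stretch of 20 bases in each of the Mir1a, Mir133 and Mir486 genes also occurs in another counted gene. The 3 detected neural genes were Mir338 at 337 CPM, Mir137 at 106 CPM and Mir219a-2 at 4.42 CPM.

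All 5 genes were detected, against 15.2% of the counted genes, and together they held 5.21% of the gene counts in library 1 and 5.90% in library 2, or 5.55% ± 0.490 (SD, n = 2). The exact 95% counting intervals were 5.19 to 5.22% and 5.88 to 5.92%, so the libraries differed by more than counting error. Mir335 supplied 80.5% ± 0.235 of that sum, Mir298 11.9% ± 0.317, Mir483 6.68% ± 0.616, Mir296 0.856% ± 0.0647 and Mir675 0.0773% ± 0.000425 (SD, n = 2). In both females Mir335 held most of the sum, at 80.3% in library 1 and 80.6% in library 2. The part of Mir483 was 7.12% and 6.25%, and that of Mir296 was 0.810% and 0.901%. Because the genes were named with their levels in these data known, detection of all of them is a description.

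Mir335 was the most abundant of the 5 by a wide margin. In human mesenchymal stem cells its product miR-335 is known to limit proliferation and migration. It had 232811 counts in library 1 and 206280 in library 2, or 41802 and 47565 CPM, a mean of 44684 ± 4075 CPM (SD, n = 2). It ranked 7th of all counted genes in library 1 and 5th in library 2. Among the 741 counted genes inside an intron of a protein-coding gene on its strand, 122 were detected, with a median of 87.6 CPM. Only Mir378a, in the metabolic coactivator gene Ppargc1b, stood above Mir335 among them, at 58024 ± 2753 CPM. The Mir378a level is uncertain, because this gene shares 20 bases with Mir378c. The genes nearest to Mir335 in level belonged to the Dlk1-Dio3 domain. Mir487b had 42350 CPM in library 1 and 46506 CPM in library 2, and Mir127 had 43840 and 44955 CPM. The third was Mirlet7g, a let-7 gene in an intron of Wdr82, at 36649 and 37012 CPM, below both values of Mir335. Only Mir127 and Mir487b had library ranges that overlapped the range of Mir335, and Mir487b shares 20 bases with Mir376b, which makes its level uncertain. The neighbours of Mir335 along chromosome 6 were far lower. Mir183, 571.6 kb to its left, had 178 and 156 counts, and Mir29a, a member of the collagen-targeting mir-29 family 321.3 kb to its right, had 490 and 435.

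Mir298 was next in level. Its product is known in mouse cells to repress Bace1, a protease that cuts the amyloid precursor protein. Mir298 had 33886 counts in library 1 and 31048 in library 2, or 6084 and 7159 CPM, a mean of 6622 ± 760.1 CPM (SD, n = 2). It ranked 33rd and 28th of all counted genes. Library 2 was the higher one, and the library ranges of 11 other detected genes overlapped that of Mir298. Closest in level over both libraries were Mir139, in an intron of the phosphodiesterase gene Pde2a, at 5891 and 6865 CPM, and the Dlk1-Dio3 genes Mir337 at 5707 and 6587 CPM and Mir540 at 5571 and 7545 CPM.

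Mir296, the neighbour of Mir298, lay far below it. Its product is known in mouse embryonic stem cells to repress Nanog through sites in the coding sequence. Mir296 had 2348 counts in library 1 and 2306 in library 2, or 422 and 532 CPM, a mean of 477 ± 77.9 CPM (SD, n = 2), and ranked 122nd and 106th. The level ratio of Mir296 to Mir298 was 0.0693 in library 1 (95% counting interval 0.0664 to 0.0723) and 0.0743 in library 2 (0.0712 to 0.0775), a mean of 0.0718 ± 0.00352 (SD, n = 2). Read the other way, Mir298 stood 13.9 ± 0.684 fold above Mir296, although 379 bases separate the hairpins. Among 67 pairs of neighbouring detected genes on the same strand and within 1000 bases of each other, the median level ratio was 5.25-fold, and 19 pairs were wider apart than Mir296 and Mir298. The ratio of this pair moved by 0.10 on the log2 scale between the libraries, against a median of 0.26 over the 67 pairs. The pair was thus wider apart than 70.1% of the close pairs, though not the widest. In some wider pairs, such as Mir758 and Mir329, a gene shares 20 bases with another counted gene, so its level is uncertain. In level, Mir296 was nearest to Mir450b, an X-linked gene, at 445 and 510.1 CPM, then to Mir320 at 387 and 519 CPM and Mir1983 at 489.8 and 528 CPM.

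Mir483 had the smallest relative spread of CPM between the females. Its product miR-483-3p is known in rat and human adipose tissue to repress the growth factor GDF3. Mir483 had 20636 counts in library 1 and 15979 in library 2, or 3705 and 3685 CPM, a mean of 3695 ± 14.6 CPM (SD, n = 2). The SD was 0.396% of the mean, against 8.28% to 16.3% for the other 4 genes. With 2 libraries such an SD is itself imprecise, and the place of Mir483 depended on the scaling. With TMM over all counted genes its log2 ratio of library 1 to library 2 was 0.10, wider than the -0.09 of Mir335 and the -0.08 of Mir675. Mir483 ranked 47th and 46th of all counted genes and 11th among the genes in introns of protein-coding genes. Mir532, in an intron of the X-linked chloride channel gene Clcn5, was nearest to it in level at 3773 and 3929 CPM, followed by the Dlk1-Dio3 genes Mir369 at 3377 and 3299 CPM and Mir380 at 4212 and 3543 CPM. Only the range of Mir380 overlapped that of Mir483.

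Mir675 was the lowest of the 5. In mouse placenta its product is known to restrain growth and to repress Igf1r, the receptor for insulin-like growth factors, and in mouse myoblasts both of its arms promote differentiation. It had 225 counts in library 1 and 197 in library 2. Its level was 40.4 CPM in library 1 (95% counting interval 35.3 to 46.0) and 45.4 CPM in library 2 (39.3 to 52.2), a mean of 42.9 ± 3.55 CPM (SD, n = 2). Mir675 ranked 211th and 215th of all counted genes. Among 47 detected genes in an exon of a long noncoding RNA gene on its strand it ranked 39th, and the median of those genes was 334 CPM. Closest in level were Mir345 at 40.9 and 45.7 CPM, Mir874 at 41.3 and 44.3 CPM and Mir193a at 38.6 and 49.6 CPM. The level ratio of Mir483 to Mir675, which share the Igf2-H19 locus, was 91.7 in library 1 (80.4 to 105.1) and 81.1 in library 2 (70.5 to 93.8), a mean of 86.4 ± 7.50 (SD, n = 2). The ratio compares processed small RNA of these genes and not their host transcripts, which were not measured.

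The order of levels was Mir335, Mir298, Mir483, Mir296 and Mir675 in both libraries, as the plot of levels by library shows. No neighbours in this order had overlapping library ranges. The narrowest step was between Mir298 and Mir483, where the lower Mir298 value was 1.64 times the higher Mir483 value, and the widest was between Mir296 and Mir675 at 9.28 times. The mean levels of Mir335 and Mir675 lay 1041-fold apart. The plot of all genes by rank places the 5 genes from the highest counted genes to the lower part of the detected genes. Reads that match several places, 36.9% of library 1 and 37.6% of library 2, were not assigned to genes. Genes with near-identical copies can therefore rank too low, and the ranks and shares of the 5 can be too high.

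**Figure D2:**
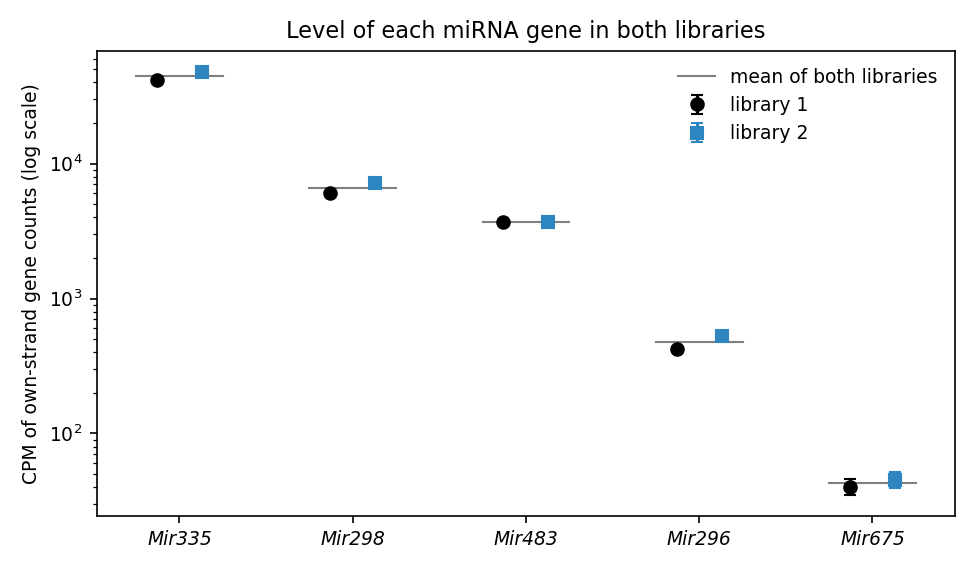
CPM of own-strand gene counts on a log scale for the 5 miRNA genes in library 1 (black circles) and library 2 (blue squares), with exact 95% counting intervals as bars and the mean as a grey line. The order is the same in both libraries, from Mir335 at 41802 and 47565 CPM to Mir675 at 40.4 and 45.4 CPM.

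**Figure D3:**
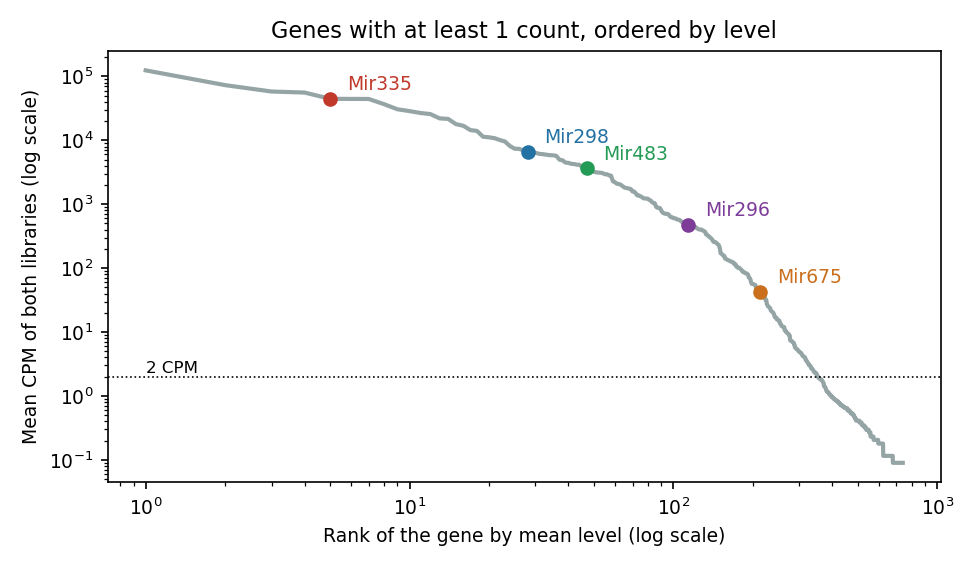
Mean CPM of both libraries against rank, both on log scales, for all genes with at least 1 count (grey line), with the 5 miRNA genes as coloured points and the detection level of 2 CPM dotted. By mean level Mir335 ranked 5th, Mir298 28th, Mir483 47th, Mir296 114th and Mir675 213th.

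The loci were set beside some other imprinted miRNA loci of the mouse to place them. The miRNA genes from Meg3 to Mirg in the Dlk1-Dio3 domain, 66 in number, had 55 detected, and the detected ones had a median of 1144 CPM. The 119 miRNA genes inside Sfmbt2 had 7 detected, with a median of 55.8 CPM, and 104 had no count. The median of the 5 genes described here was 3695 CPM, but these were named with their levels known, whereas the Dlk1-Dio3 and Sfmbt2 genes were taken whole by position. Outside the 5, the counted gene Gm27591 lies 19.1 kb from Mir296 and had 0 counts in both libraries. Gm27591 shares 20 bases with 10 other counted genes. By share of gene counts, the 5 genes at 5.55% ± 0.490 stood between the Dlk1-Dio3 genes at 33.8% ± 1.07 and the Sfmbt2 genes at 0.105% ± 0.00317 (SD, n = 2). By mean level, Mir335 was exceeded by 1 of the 66 Dlk1-Dio3 genes, Mir411 at 73057 ± 5406 CPM. The Mir411 level is uncertain because this gene shares 20 bases with Mir758. In library 1, Mir127 at 43840 CPM and Mir487b at 42350 CPM also stood above Mir335 at 41802 CPM. Again by mean level, Mir298 was exceeded by 9 Dlk1-Dio3 genes, Mir483 by 18, Mir296 by 39 and Mir675 by 46. Of the Sfmbt2 genes, none exceeded Mir296, and 6 exceeded Mir675. The highest of them, Mir467e at 409 ± 25.2 CPM, shares 20 bases with 16 other counted genes. Many Sfmbt2 genes are near-identical copies, and reads that match several places were not assigned to genes, so these levels can be too low. Mir653 and Mir489, in an intron of Calcr, were at 9.60 ± 0.119 and 1.20 ± 0.0735 CPM, below all 5. Calcr spans positions 3685680 to 3764714 of chromosome 6, and the imprinted gene Peg10 starts at 4747306, so the 2 are not adjacent.

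**Figure D4:**
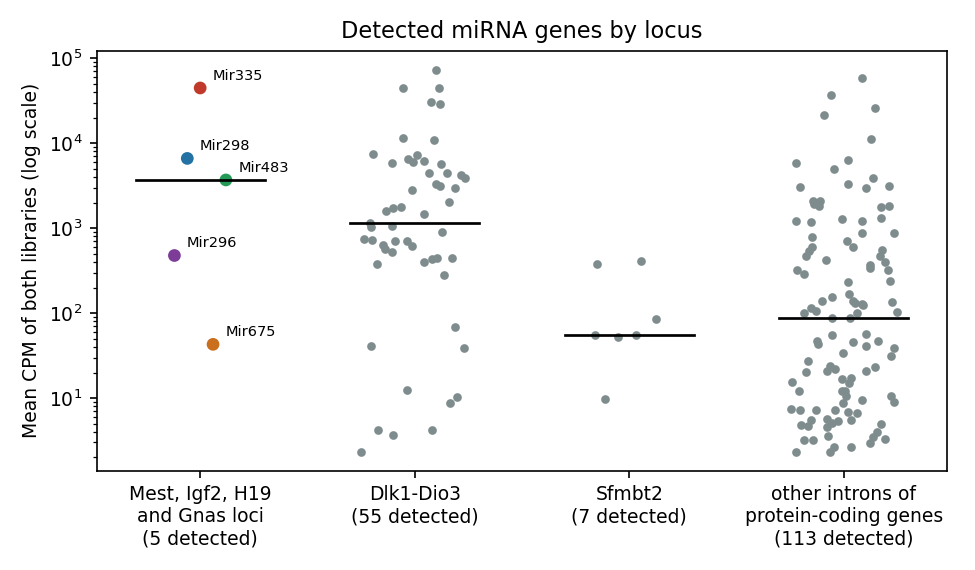
Mean CPM of both libraries on a log scale for each detected miRNA gene of the Mest, Igf2, H19 and Gnas loci (5), the Dlk1-Dio3 domain (55), Sfmbt2 (7) and other introns of protein-coding genes (113), with medians as black lines. Mir335 lies near the top of the Dlk1-Dio3 range, and Mir675 lies below the Sfmbt2 median of 55.8 CPM.

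Between the libraries, Mir335, Mir298 and Mir296 were lower in library 1 than in library 2, and Mir483 and Mir675 did not pass the test. Counts were compared with an exact two-sided binomial test given totals scaled by the trimmed mean of M-values (TMM), adjusted by Benjamini-Hochberg over the 335 detected genes. It is a comparison of the reads of 2 libraries, not of conditions. The log2 ratio of library 1 to library 2 was -0.16 for Mir335 (95% counting interval -0.17 to -0.16, adjusted exact p = 5.93e-307), -0.21 for Mir298 (-0.23 to -0.19, adjusted exact p = 3.85e-77) and -0.31 for Mir296 (-0.40 to -0.23, adjusted exact p = 6.70e-13). It was 0.03 for Mir483 (0.000489 to 0.06, adjusted exact p = 0.0769) and -0.15 for Mir675 (-0.43 to 0.14, adjusted exact p = 0.420). At its depth, the counts of Mir675 remain compatible with any log2 ratio from -0.43 to 0.14. Hence 3 of 5 genes were called, all lower in library 1, where 55.5% of the detected genes were called, 28.7% lower and 26.9% higher in library 1. A share this close to that of all genes says nothing particular of the 5. The median ratio was -0.16 for the 5 genes and -0.03 for all detected genes. Among all detected genes the 5 ratios were ordinary in size, since 116 had a wider ratio than Mir296 and the median absolute log2 ratio was 0.21. Many of those genes had few counts, where counting error widens ratios, and genes of like level were not compared as a set. Nearest in level to Mir335, Mir487b had -0.11 and Mir127 -0.01, both narrower, while the lower gene Mir126a had 0.45. Mir483 depended on the scaling, since with DESeq2 size factors it was called higher in library 1 at 0.06 (adjusted exact p = 0.000118).

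Markers of other cell types also moved between the libraries. Summed CPM in library 1 and library 2 was 29518 and 21931 for the endothelial gene Mir126a, 657 and 408 for 4 leukocyte genes and 5361 and 4187 for 3 connective tissue and cartilage genes, all higher in library 1. It was 25509 and 29100 for 2 smooth muscle genes, 96.8 and 119 for 2 erythroid genes, 256 and 345 for 4 epithelial genes, 381 and 516 for 9 neural genes, 17.2 and 37.1 for 2 endocrine genes and 184 and 833 for the liver genes Mir122 and Mir192, sums that were all lower in library 1. Single genes went against these sums. Mir145a of the smooth muscle list had 545 CPM in library 1 and 508 in library 2, Mir144 of the erythroid list had 25.7 and 24.4, Mir338 of the neural list had 346 and 328, and Mir192 of the liver list had 14.9 and 9.22. The liver sum thus rested on Mir122 at 169 and 824 CPM. The skeletal muscle list of 9 genes stood at 130998 and 120702, a sum that rested on Mir206 at 129336 and 119323 CPM. Mir499, Mir208b and Mir1a-1 were also higher in library 1, whereas Mir133b, Mir486, Mir1a-2, Mir133a-1 and Mir133a-2 were lower. The part of these cell types in the ratios of Mir335, Mir298 and Mir296 was not tested. In whole muscle, fewer cells of a type and less RNA per cell cannot be told apart. With 1 animal per library, neither can a difference between animals and one from dissection or library preparation.

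**Figure D5:**
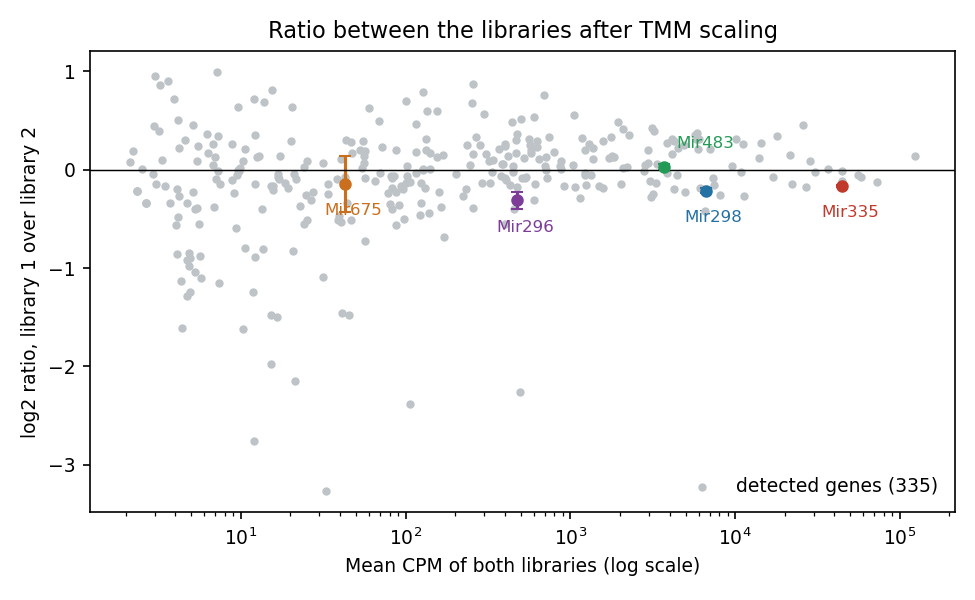
Log2 ratio of library 1 over library 2 after TMM scaling against mean CPM on a log scale for the 335 detected genes (grey points), with the 5 miRNA genes coloured and their exact 95% counting intervals as bars. Mir296 at -0.31, Mir298 at -0.21 and Mir335 at -0.16 lie below 0, and the intervals of all 5 fall within the spread of the grey points.

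Strand assignment was clean for the 5 genes. On the opposite strand, Mir675 had 1 count in library 1 and 0 in library 2, and the other 4 genes had 0 in both. Ignoring strand therefore left the counts of Mir335, Mir298, Mir483 and Mir296 as they were and gave Mir675 226 in place of 225 in library 1.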

How the data were processed

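Small RNA from gastrocnemius of 2 female mice was measured in 1 library each. The authors deposited whole-number counts per gene, not normalized, for mm10 with GENCODE M21, per the text filed beside the tables. The aligner is not given in the sources used here. The same holds for the counter. From the sums, the 3 columns are unstranded, own-strand and opposite-strand counts. The own-strand column was used, without the 4 lines that name no gene. Of all reads, these held 36.9% and 37.6% as multimapping, 8.03% and 9.26% as unmapped, 1.70% and 2.09% as no feature and 0% as ambiguous in libraries 1 and 2. All 2202 identifiers matched GENCODE M21.

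CPM, ranks and ratios were computed in Python 3.11.15 with pandas 2.3.3, scipy 1.17.1, numpy 2.4.6 and matplotlib 3.10.9. TMM factors came from the detected genes in edgeR 4.0.16 (R 4.3.3), and DESeq2 1.42.0 size factors were an alternative. The counting test was checked on simulated counts. Level likeness is the larger difference over both libraries in log2(CPM + 0.5). Folding energies came from RNAfold 2.7.2. Exact 95% intervals and exact p-values reflect counting error of reads alone. Reads carry no molecular identifiers, so reads copied from the same molecule were not told apart, and the intervals can be too narrow. A count of 0 allows up to 3 counts, or 0.539 and 0.692 CPM.

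The genes, marker lists and comparison loci were chosen with earlier results of these data known. Named genes were drawn from the 5, the 3 nearest to each in level, neighbours along the chromosome, seed matches, markers and the highest gene of each comparison locus. Mir378a, the grouping by host and the pairs within 1000 bases were chosen after their values were seen. Alternatives were the unstranded column, other denominators and scaling, detection thresholds, pseudocounts, hairpin length and each library alone.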

Additional observations from a re-analysis of the deposited data

Results flagged for a closer look

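Reads that match several places made up 36.9% of library 1 and 37.6% of library 2. They stand in a line of the deposited tables that the levels of the 5 genes do not use, which is why they are given here. Whether any of them came from the 5 genes was not tested. The denominator matters, since the summed share of the 5 was 5.55% of gene counts and 2.90% of all reads. Opposite-strand counts of the 5 genes stayed at or below 1.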

How the results depend on the processing

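Of 65 values recomputed under alternatives that keep both libraries, 45 kept their direction and their side of the threshold or moved by less than 1 SD, 17 moved further, 3 passed the threshold that they missed in the main setting, and 0 reversed. With all reads as denominator the means were 23316 CPM for Mir335, 1931 for Mir483, 22.4 for Mir675, 248 for Mir296 and 3454 for Mir298, and the summed share was 2.90%. Without Mir206 in the total they were 51011 for Mir335, 4219.7 for Mir483, 49.0 for Mir675 and 7559 for Mir298, and the share was 6.34%. With unstranded counts they were 50885 for Mir335, 4209 for Mir483, 49.0 for Mir675 and 7540.3 for Mir298, and the share was 6.32%. These shifts follow from the changed totals. The log2 ratio of Mir483 was called at 0.062 with DESeq2 size factors, at 0.056 with unstranded counts and at 0.10 with TMM over all counted genes, an alternative chosen after seeing the data. It was not called with gene totals, with totals without Mir206 or with all genes of 1 count or more. The number of the 5 genes called was 3 or 4 in all settings. Of all 335 genes, 105 were called higher and 81 lower in library 1 with DESeq2 size factors, 83 and 104 with gene totals, and 117 and 74 with TMM over all counted genes, against 90 and 96. Per base of hairpin the ratio of Mir483 to Mir675 was 99.4. The order of the 5 genes and the 15 nearest genes were the same in each alternative run for them. With each library alone the values were those given per library, with no test, and they say nothing of stability. Depth limits Mir675 most. No paired analysis was possible because the series has a single group.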
